A study of Mus musculus with 8 samples.

Results

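The integrated stress response and the unfolded protein response were followed in the hearts of tumor-bearing mice through 10 genes, Atf4, Atf5, Ddit3, Trib3, Asns, Ern1, Xbp1, Atf6, Herpud1 and Sdf2l1. They were taken by gene name from the table of ventricular read counts, where each has 1 row, and they are 10 of the 43346 genes listed. All 10 passed the filter on low counts and are among the 16111 genes tested. The mice were male C57BL/6 animals injected subcutaneously at 7 weeks of age, 4 of them with 1000000 LLC1 cells, a mouse Lewis lung carcinoma line of C57BL/6 origin (tumor-bearing mice), and 4 with PBS vehicle (PBS-injected mice). Ventricles were collected 14 days later, and each library is from a separate mouse. The labels name no altered allele and no drug beside the injection in either group, and the tumor is a graft under the skin, not a cancer of the lung or heart. Mice are named by their injection and the replicate code of their label (LLC1 1-2, 1-3, 1-5 and 2-2, PBS 1-1, 1-3, 2-1 and 2-5). The comparison asks whether these stress pathways differed at the level of mRNA in the ventricle 14 days after tumor cells were given.

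Both responses join trouble with proteins to transcription. In the integrated stress response, kinases that sense unfolded protein, lack of amino acids, heme shortage or double-stranded RNA phosphorylate the initiation factor eIF2, which slows translation in general while the mRNA of the transcription factor ATF4 is translated more. ATF4, with partners such as ATF5 and CHOP (the product of Ddit3), then turns on genes for amino acid supply and feedback. In the unfolded protein response, 3 sensors of the endoplasmic reticulum (ER), PERK, IRE1 (the product of Ern1) and ATF6, lead to ATF4, to spliced XBP1 and to cleaved ATF6, which raise chaperones, folding enzymes and the machinery that removes misfolded proteins. Much of this signaling runs through translation, splicing and cleavage, which counts of reads per gene do not record, and the counts cannot separate spliced from unspliced Xbp1. In heart muscle these pathways are known from pressure overload, ischemia and protein misfolding.

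Herpud1 was the gene of the 10 that differed between the groups, and the promoter sequence of Herpud1 is shown because it holds the elements by which the literature places this gene under both responses. The 250 bases before the RefSeq start of Herpud1 (build GRCm38.p6, plus strand, chr8:94386179-94386428) are given with 2 motifs in capitals. They are the ATF4-type composite site of C/EBP and ATF factors (TGATGCAA, here on the other strand as TTGCATCA) and the ER stress element II (ERSE-II, which is ATTGG and CCACG with 1 base of any kind between them). For comparison, a stretch of 29 bases around the ER stress element (ERSE, which is CCAAT and CCACG with 9 bases of any kind between them, in capitals) is shown from the promoter of Hspa5, the gene of the main ER chaperone BiP (chr2:34772020-34772048, plus strand), a gene chosen for this after its values were seen.
Herpud1: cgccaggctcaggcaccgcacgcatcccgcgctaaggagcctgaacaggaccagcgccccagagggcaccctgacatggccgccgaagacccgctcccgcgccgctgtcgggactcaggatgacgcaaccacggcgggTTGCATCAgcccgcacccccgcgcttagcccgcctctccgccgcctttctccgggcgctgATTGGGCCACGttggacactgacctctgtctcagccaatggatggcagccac
Hspa5: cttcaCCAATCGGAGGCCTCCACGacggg
The C/EBP-ATF match in Herpud1 lay at -112 to -105 and the ERSE-II match at -52 to -42, counted from the RefSeq start, and the ERSE of Hspa5 lay at -65 to -47. These 3 motifs and the core of the XBP1 element (UPRE, TGACGTGG) were searched on both strands in the 250 bases before each start. Among 32851 promoters of the mouse RefSeq set, ERSE-II was found in 10 (0.0304%), the ERSE in 37 (0.113%), the UPRE core in 185 (0.563%) and the C/EBP-ATF site in 260 (0.791%). The promoter table held 9 of the 10 genes, all but Atf6, and Herpud1 was the only gene of these 9 with a match to any of the 4 motifs. Only these exact spellings in these 250 bases were counted. Sites spelled otherwise, such as tgatgaaa in the Asns window, and sites further away were not, so the other genes may hold sites too. Of 27 genes for ER chaperones and folding enzymes, 21 were in the table, of which 7 held an ERSE (Calr, Canx, Creld2, Dnajc3, Hsp90b1, Hspa5 and Pdia6), 2 the UPRE core (Txndc11 and Txndc5), 0 ERSE-II and 0 the C/EBP-ATF site. The bases printed for Herpud1 end in ccaat, 9 more bases and ccac, which is an ERSE without its last letter. The window stopped there, so an ERSE reaching past the RefSeq start was not searched for. A match gives the letters in these windows and does not show that a factor was bound there.

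Counts on genes came to between 12480706 and 19747596 per mouse, so that 1 count per 1000000 counts (CPM, scaled with edgeR's TMM factors) stood for 11.7 to 19.9 counts. The ventricles carried their defining markers. The summed level of 8 cardiomyocyte genes was 93933 to 99028 CPM in tumor-bearing mice and 82745 to 97219 CPM in PBS-injected mice. The PBS mice 1-3, 2-1 and 2-5 were at 82745, 84204 and 85360.5 CPM, below each tumor-bearing mouse. The overlap came from PBS 1-1, where Ttn was at 18482 CPM, against 8446, 8261 and 8307 CPM in PBS 1-3, 2-1 and 2-5. The groups were separated on the first principal component (31.5% of the variance), whereas the library of PBS 1-1 stood apart on the second (25.2%). In edgeR's quasi-likelihood test, 1406 of the 16111 genes (8.73%) differed at an FDR under 0.05, with 663 (4.12%) higher in the tumor-bearing mice and 743 (4.61%) lower; scaling to total counts instead gave 225 higher and 793 lower. Without adjustment, 4103 of the genes (25.5%) had a p under 0.05 in the same test, against which such counts of the lists are to be read. Over all genes tested the median log2 fold change was -0.01 with TMM factors and -0.06 with total counts.

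Of the 10 genes, 1 was called higher, Herpud1, and 0 were called lower, against a background of 8.73% of genes called in either direction. The values of the 4 tumor-bearing and the 4 PBS-injected mice did not overlap for 1 of the 10 genes, again Herpud1, against 17.2% of all genes tested. A share of 1 in 10 is close to the background, so that the count itself does not set these genes apart from other genes. The other 9 genes had an unadjusted p above 0.05 in the same test, with intervals that differed widely in width. The count of 1 higher and 0 lower was found in each of the 17 alternative analyses as well.

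**Figure D1:**
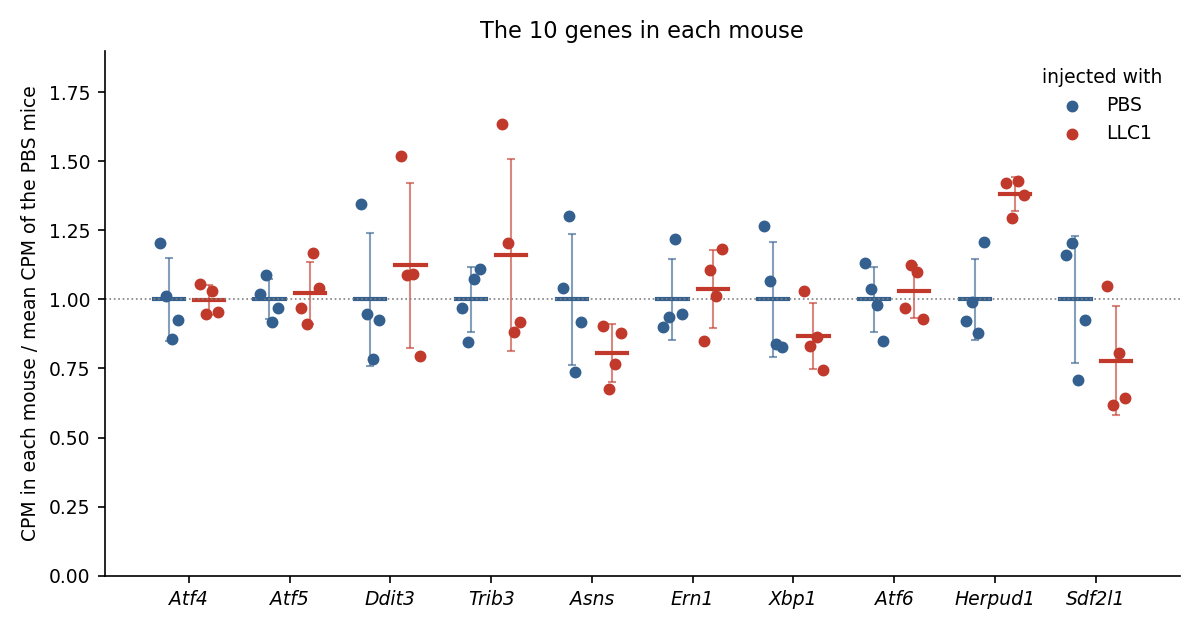
Level of each of the 10 genes in each mouse, as CPM divided by the mean CPM of the 4 PBS-injected mice (vertical axis, linear from 0). Points are single mice, thick bars are group means and thin bars are 1 SD (n = 4 per group); the 2 groups of points are apart for Herpud1 and overlap for each of the other 9 genes.

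Herpud1 encodes a membrane protein of the ER that takes part in ER-associated degradation, the route by which misfolded proteins are drawn out to the proteasome. Its level was 338, 307, 339 and 327 CPM in the LLC1 mice 1-2, 1-3, 1-5 and 2-2, and 219, 235, 208 and 287 CPM in the PBS mice 1-1, 1-3, 2-1 and 2-5. Every tumor-bearing mouse was thus above every PBS-injected mouse, and PBS 2-5 was the nearest to them. The means were 328 ± 14.7 CPM in tumor-bearing mice and 238 ± 34.8 CPM in PBS-injected mice (SD, n = 4 each), a 1.38-fold difference with a 95% interval from 1.20 to 1.59. On the log2 scale this was 0.47 (SE 0.09), with an FDR of 0.0118 in edgeR's quasi-likelihood test and an exact two-sided permutation p of 0.0286, the smallest that 4 against 4 mice can give. The call did not rest on a single mouse. When single mice were left out, the log2 fold change was between 0.40 (without PBS 2-1) and 0.57 (without PBS 2-5) and the edgeR FDR between 0.0013 and 0.0459. Without PBS 1-1, the library that stood apart, it was 0.43 with an edgeR FDR of 0.0110. The other 9 alternatives gave 0.41 to 0.48. The gene lies at chr8:94386438-94395377 on mm10, its exons overlap no other gene in GENCODE release M21, and no other gene's transcript resembled its own.

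The markers of other cell types moved between the groups too, and they are given here because ventricular tissue was sequenced whole. Among cardiomyocyte genes, 1 of 8 was higher in tumor-bearing mice (Myh6, the main myosin heavy chain of the mouse ventricle, log2 fold change 0.24) and 0 were lower. Lower were 2 of 6 endothelial genes (Kdr and Emcn; summed level 768 to 897 CPM in tumor-bearing and 892 to 1174 CPM in PBS-injected mice), 3 of 6 fibroblast genes (Col1a1, Col1a2 and Lum; 729 to 807 and 782 to 982 CPM) and 2 of 6 macrophage genes (Mrc1 and Lyz2; 226 to 277 and 251 to 375 CPM). Of 4 neutrophil genes tested, S100a8 and S100a9 were higher, at a summed level for the 6 listed of 4.38 to 7.64 CPM against 1.77 to 4.07 CPM. For dividing cells, Mki67, Top2a, Cdk1 and Birc5 were lower, 4 of the 4 genes tested, and the 6 listed summed to 2.37 to 4.92 CPM against 14.5 to 46.5 CPM. None of the 2 B and plasma cell genes tested and none of the 4 erythroid genes tested was called in edgeR's test, and the erythroid sum reached from 1190 to 4313 CPM over the 8 mice. No listed marker was at 0 counts in all mice. In such tissue, fewer cells of a type and less RNA per cell cannot be told apart, and the part of these cells in the level of any stress gene was not tested.

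Of the transcription factors of the integrated stress response, Atf4, Atf5 and Ddit3 were not called in either direction in edgeR's test. Atf4 stood at 61.7, 55.4, 60.3 and 55.8 CPM in tumor-bearing mice and at 70.5, 59.2, 50.1 and 54.1 CPM in PBS-injected mice, in the order of mice used for Herpud1. The highest and the lowest of the 8 values were both in PBS-injected mice, and the means were almost equal (58.3 ± 3.15 and 58.5 ± 8.83 CPM). The log2 fold change was -0.00 (SE 0.10) with a 95% interval from -0.21 to 0.21 (edgeR FDR 0.996, exact permutation p 1.0). The 95% interval thus covers folds from 0.864 to 1.16, and its sign changed between alternatives. Since ATF4 is controlled largely through translation of its mRNA, this level does not give the amount of ATF4 protein.

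Atf5, which encodes a related factor that is translated in the same way and acts in the mitochondrial stress response, stood at 43.2, 40.8, 52.2 and 46.5 CPM in tumor-bearing mice and at 45.6, 48.7, 41.1 and 43.3 CPM in PBS-injected mice. The groups overlapped over most of their range, with a log2 fold change of 0.04 (SE 0.09, 95% interval -0.15 to 0.22, edgeR FDR 0.836). Exons of Nup62 and Il4i1 on the other strand cover 4.11% of the exon bases of Atf5, and whether strand was used in counting is not given in the sources used here. Ddit3, the gene of the factor CHOP that promotes cell death when ER stress lasts, stood at 27.9, 19.95, 20.02 and 14.5 CPM in tumor-bearing mice and at 24.6, 17.4, 14.4 and 16.9 CPM in PBS-injected mice. The highest value was in LLC1 1-2 and the next in PBS 1-1, and the spread inside each group exceeded the distance between the means. Its log2 fold change was 0.17 (SE 0.19, 95% interval -0.24 to 0.59, edgeR FDR 0.613), and without LLC1 1-2 it was -0.00. Part of Ddit3 is shared with neighbors in the annotation, at most 6.13% of its exon bases with any of them.

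Trib3 and Asns are transcriptional targets of ATF4, and both were low in the ventricle. Trib3, which encodes a pseudokinase that dampens AKT signaling and ATF4 itself, stood at 6.09, 4.48, 3.28 and 3.42 CPM in tumor-bearing mice and at 3.60, 3.15, 4.002 and 4.13 CPM in PBS-injected mice. Its values were highest in LLC1 1-2 and LLC1 1-3, whereas LLC1 1-5 and 2-2 were inside the range of the PBS-injected mice. The log2 fold change was 0.19 (SE 0.20, 95% interval -0.25 to 0.63, edgeR FDR 0.590) and was -0.01 without LLC1 1-2. Asns, the gene of asparagine synthetase, stood at 2.38, 1.78, 2.02 and 2.31 CPM in tumor-bearing mice and at 2.75, 3.44, 1.94 and 2.42 CPM in PBS-injected mice. The highest 3 values were in PBS-injected mice and the lowest in LLC1 1-3, but PBS 2-1 was among the tumor-bearing mice. The log2 fold change was -0.30 (SE 0.20, 95% interval -0.74 to 0.15, edgeR FDR 0.392), and it was below 0 in each of the 17 alternatives without reaching the threshold. Asns had 27 to 49 counts per mouse and Trib3 had 42 to 92, the lowest of the 10 genes.

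**Figure D2:**
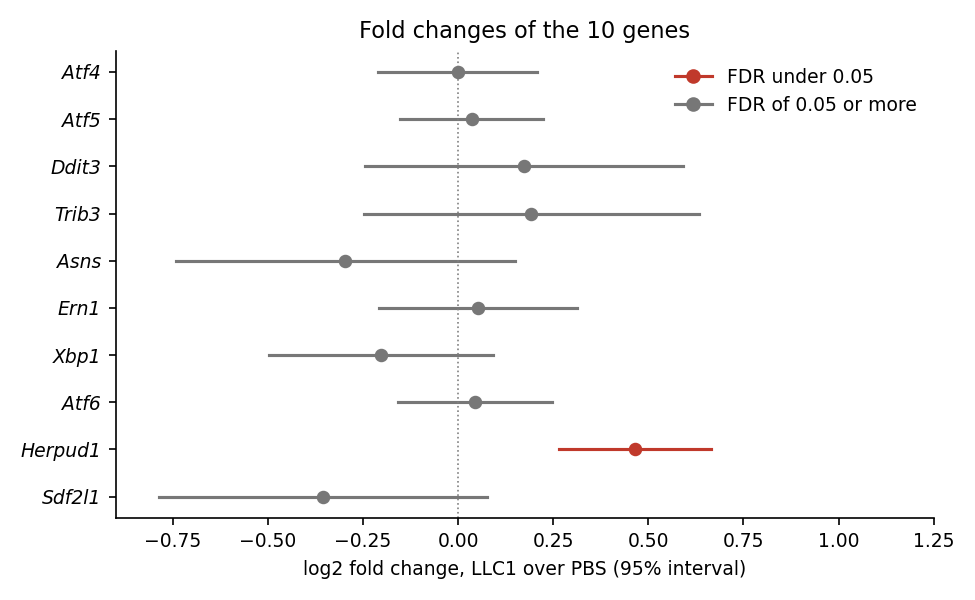
Log2 fold change of each of the 10 genes, tumor-bearing over PBS-injected mice (horizontal axis), from edgeR's quasi-likelihood fit of 4 against 4 mice. Points are estimates and lines are 95% intervals; the interval of Herpud1 (0.26 to 0.67) lies above 0, and the other 9 include 0.

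Of the sensors, Ern1 and Atf6 were not called either. Ern1, the gene of IRE1, the kinase and RNase that starts Xbp1 splicing, stood at 21.1, 27.5, 25.1 and 29.3 CPM in tumor-bearing mice and at 22.3, 23.2, 30.2 and 23.5 CPM in PBS-injected mice. PBS 2-1 was the highest of all 8 mice and well above the other 3 PBS-injected mice. The log2 fold change was 0.05 (SE 0.12, 95% interval -0.21 to 0.31, edgeR FDR 0.825). Atf6, the gene of the sensor that is cleaved in the Golgi to release a transcription factor, stood at 146, 170, 167 and 141 CPM in tumor-bearing mice and at 171, 157, 148 and 129 CPM in PBS-injected mice. The lowest and the highest value were both in PBS-injected mice, and the log2 fold change was 0.04 (SE 0.09, 95% interval -0.16 to 0.25, edgeR FDR 0.811).

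Xbp1, whose spliced mRNA encodes the factor made on IRE1 activation, stood at 88.9, 71.9, 74.7 and 64.5 CPM in tumor-bearing mice and at 109, 92.1, 72.5 and 71.6 CPM in PBS-injected mice. The highest 2 values were in PBS-injected mice, and the other PBS-injected mice were among the tumor-bearing ones. The log2 fold change was -0.20 (SE 0.14, 95% interval -0.50 to 0.09) with an edgeR FDR of 0.379 and an exact permutation p of 0.314. Without PBS 1-1 it was -0.07. Sdf2l1, an ER protein that works with the BiP chaperone cycle and is a target of the unfolded protein response, stood at 8.60, 5.07, 6.62 and 5.28 CPM in tumor-bearing mice and at 9.52, 9.89, 5.83 and 7.61 CPM in PBS-injected mice. LLC1 1-2 and 1-5 were within the range of the PBS-injected mice, and PBS 2-1 and 2-5 were within that of the tumor-bearing mice. The log2 fold change was -0.35 (SE 0.20, 95% interval -0.79 to 0.08) with an edgeR FDR of 0.287 and an exact permutation p of 0.2. Both Xbp1 and Sdf2l1 were below 0 in each of the 17 alternatives, with the lowest FDR when the leading number of the replicate code was a covariate in edgeR (0.0556 for Xbp1 and 0.0929 for Sdf2l1).

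Set per kilobase of gene length, the 10 genes covered a wide range of levels, in the same order in both groups. In PBS-injected mice Herpud1 was the highest at 102 ± 14.9 CPM per kb, followed by Atf4 at 33.9 ± 5.12, Xbp1 at 26.6 ± 5.56, Atf5 at 22.4 ± 1.62, Atf6 at 16.4 ± 1.93 and Ddit3 at 10.7 ± 2.57 CPM per kb (SD, n = 4). Sdf2l1 followed at 7.41 ± 1.69, Ern1 at 3.03 ± 0.444, Trib3 at 1.75 ± 0.207 and Asns at 0.964 ± 0.229 CPM per kb. Herpud1 was thus in the upper tail of the ventricular transcriptome, at the 97.1 percentile of genes tested, and Asns was at the 16.2 percentile. Among neighbors in this order, the values of the PBS-injected mice overlapped for Atf4 and Xbp1, Xbp1 and Atf5, Atf6 and Ddit3, and Ddit3 and Sdf2l1, and did not overlap for the other 5 pairs. In tumor-bearing mice the overlapping neighbors were Xbp1 and Atf5, Atf6 and Ddit3, and Ern1 and Trib3.

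Across the 8 mice the genes varied in part together, given here as Pearson's r of log2 CPM with no test, since the mice share 2 groups and differ in depth. PBS 1-1, the library that stood apart, had the highest Atf4 and Xbp1 of the 8 mice. These values of r may lean on it, and they were not computed without it. Xbp1 went with Sdf2l1 (r = 0.86) and with Atf4 (r = 0.82), and Sdf2l1 with Asns (r = 0.84), while Ern1 ran opposite to Sdf2l1 (r = -0.87), Ddit3 (r = -0.79) and Xbp1 (r = -0.75). Herpud1 had its highest r among the 10 genes to Trib3 (0.31) and its lowest to Xbp1 (-0.46). Over all genes tested, the patterns most like that of Herpud1 were those of Usp50 (r = 0.99), Plcxd1 (r = 0.98) and Gm10774 (r = 0.98). For Xbp1 they were Slc15a4 (r = 0.98), Rps27l (r = 0.98) and Mrpl20 (r = 0.98), and for Sdf2l1 they were 1700016P03Rik (r = 0.97), Zfp382 (r = 0.96) and Clvs1 (r = 0.95). These are the highest of 16111 values over 8 mice.

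The rest of both pathways was read from 9 gene lists, which hold 163 genes together, of which 154 were tested, the 10 genes above included. Of these 154, 10 were higher and 12 lower at an FDR under 0.05, against 4.12% and 4.61% of all genes tested. With total-count scaling 3 were higher and 14 lower, without PBS 1-3 it was 4 and 4, and with the leading digit of the replicate codes as covariate it was 9 and 19. The median log2 fold change over the 154 was -0.02, beside -0.01 over all genes. List by list, most held 1 or 2 calls in either direction; the ER chaperones held 5, all lower, and the mitochondrial list 4, all higher.

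In the list of eIF2 kinases, phosphatase subunits and their regulators (12 of 12 tested), 1 gene was higher and 1 lower, against 4.12% and 4.61% of all genes, and 4 had an unadjusted p under 0.05 (33.3% beside 25.5%). Both called genes are subunits that direct the phosphatase to eIF2. The number called lower was 2 with total-count scaling or without PBS 2-5 and 3 with the replicate-code covariate. Ppp1r15a, the stress-induced subunit GADD34, was at 41.3, 38.6, 35.8 and 39.7 CPM in tumor-bearing mice and at 31.8, 28.5, 24.3 and 34.2 CPM in PBS-injected mice, with a log2 fold change of 0.39 (SE 0.10, edgeR FDR 0.0329). Ppp1r15b, the constitutive subunit CReP, was at 28.6, 30.4, 26.04 and 29.03 CPM and at 37.4, 39.1, 32.3 and 34.3 CPM, with a log2 fold change of -0.33 (SE 0.08, edgeR FDR 0.0288). Neither gene's groups overlapped, and the pair moved in opposite directions. Exons of Gm26616 on the other strand cover 11.4% of the exon bases of Ppp1r15b. Ppp1r15a was past the threshold in 2 of the 8 analyses that each left out a mouse, those without PBS 1-1 or PBS 2-5, its edgeR FDR being 0.0513 without LLC1 1-5 and up to 0.103 without PBS 1-3 among the other 6, and with total-count scaling its edgeR FDR was 0.0677. Ppp1r15b was past it in 3 of 8, with an edgeR FDR of 0.0550 to 0.0941 without PBS 1-3 or without any of the 4 LLC1 mice.

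Of the transcription factors of the response, 8 of 9 were tested and 0 were called in either direction by edgeR's test, with 2 at an unadjusted p under 0.05 (25.0% beside 25.5% over all genes). DESeq2 called 1 higher and 1 lower, and limma-voom called 0. Elsewhere 1 was called lower with total-count scaling, the likelihood ratio test, the replicate-code covariate or without PBS 2-1, and 1 higher with no low-count filter or without PBS 1-1. The lowest FDR was that of Cebpg, a partner of ATF4, at 25.8 ± 1.56 CPM in tumor-bearing and 31.9 ± 3.72 CPM in PBS-injected mice (log2 fold change -0.31, edgeR FDR 0.0589). Cebpg was past the threshold in 4 of the 9 alternatives on all mice and in 1 of the 8 with a mouse left out, its FDR with total-count scaling in edgeR being 0.0379. The other gene of the list with an unadjusted p under 0.05, Cebpb, a C/EBP factor named after its values were seen, lay on the other side, at 19.8 ± 1.84 CPM in tumor-bearing and 13.7 ± 4.37 CPM in PBS-injected mice (log2 fold change 0.54, SE 0.19, edgeR FDR 0.0917).

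Among 19 tested genes of amino acid synthesis and transport under ATF4, 1 was higher and 1 lower, and 4 had an unadjusted p under 0.05 (21.1% beside 25.5% over all genes). Slc3a2, the heavy chain shared by several amino acid exchangers, was at 48.0, 49.1, 40.8 and 44.3 CPM in tumor-bearing mice and at 32.7, 35.4, 32.4 and 31.0 CPM in PBS-injected mice (log2 fold change 0.47, SE 0.08, edgeR FDR 0.00501). Aldh18a1, the enzyme that begins proline synthesis, was at 9.31 ± 0.633 CPM in tumor-bearing and 12.8 ± 0.991 CPM in PBS-injected mice (log2 fold change -0.46, SE 0.10, edgeR FDR 0.0137). Among 13 tested stress effectors under ATF4, 1 was higher and 0 lower in edgeR's test, with 6 at an unadjusted p under 0.05 in either direction (46.2% beside 25.5% over all genes). Higher was Eif4ebp1, the gene of the translation repressor 4E-BP1, at 79.1, 66.0, 62.7 and 68.0 CPM in tumor-bearing mice and at 42.3, 42.9, 44.9 and 48.4 CPM in PBS-injected mice (log2 fold change 0.63, SE 0.08, edgeR FDR 0.00139). Slc3a2, Aldh18a1 and Eif4ebp1 were past the threshold in each of the 8 analyses with a mouse left out and in the 9 others. The number of stress effectors called higher was 2 without PBS 2-1, without PBS 2-5, with the likelihood ratio test and with no low-count filter. The largest fold change of that list was that of Ddit4, an inhibitor of mTORC1 signaling named after its values were seen, at 122 ± 13.1 CPM in tumor-bearing and 70.7 ± 29.9 CPM in PBS-injected mice, with no overlap (log2 fold change 0.79, SE 0.26, edgeR FDR 0.0761).

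In the list of sensors of the unfolded protein response and the proteins that act beside them (14 of 15 tested), 2 genes were higher and 2 lower, against 4.12% and 4.61% of all genes, and 6 had an unadjusted p under 0.05 (42.9% beside 25.5%). Bloc1s1, whose mRNA is cut by IRE1, was at 70.4 ± 4.68 CPM in tumor-bearing and 54.8 ± 3.41 CPM in PBS-injected mice (log2 fold change 0.36, edgeR FDR 0.0116), and Rtcb, the ligase that joins spliced Xbp1, was at 76.4 ± 3.00 and 64.4 ± 2.79 CPM (log2 fold change 0.25, edgeR FDR 0.0281). Exons of Rdh5 on the same strand cover 55.9% of those of Bloc1s1, so that its count is uncertain. Lower were Creb3l2, an ER-bound factor related to ATF6 (49.8 ± 4.45 and 61.4 ± 4.08 CPM; log2 fold change -0.30, edgeR FDR 0.0338), and Mbtps2, the protease that cleaves ATF6 (16.4 ± 1.29 and 20.5 ± 1.34 CPM; log2 fold change -0.32, edgeR FDR 0.0412), whose exons are covered to 28.4% by Yy2. With total-count scaling neither Bloc1s1 (edgeR FDR 0.0503) nor Rtcb (0.124) was past the threshold, and with no low-count filter Mbtps2 was not (0.0660). With a mouse left out, the call of Rtcb was lost without PBS 1-3, PBS 2-1 or any LLC1 mouse, that of Creb3l2 without PBS 1-3, PBS 2-1, LLC1 1-2, 1-3 or 1-5, and that of Mbtps2 without PBS 1-3, PBS 2-1, LLC1 1-2, 1-3 or 2-2. Their highest edgeR FDRs, all without PBS 1-3, were 0.107, 0.108 and 0.116.

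Of the ER chaperones and folding enzymes, some were lower in tumor-bearing mice. All 27 genes were tested, 5 were lower and 0 higher at an FDR under 0.05 in edgeR's test, against 4.61% and 4.12% of all genes (13 had an unadjusted p under 0.05 in either direction, 48.1% beside 25.5% over all genes, and 0 were called higher in any of the 17 alternatives), and 23 of the 27 had a log2 fold change below 0 (8387 of 16111 over all genes). Their median was -0.25, beside -0.01 over all genes, and it was -0.30 with total-count scaling and -0.18 without PBS 1-1, the library that stood apart. Lower were Pdia3 and Pdia4, disulfide isomerases of the ER (log2 fold changes -0.49 and -0.61, edgeR FDR 0.00833 and 0.0180), Hyou1, a large chaperone of the HSP70 family that exchanges nucleotide on BiP (-0.47, edgeR FDR 0.0172), Hspa13, a smaller member of that family (-0.38, edgeR FDR 0.00848), and Txndc5, a thioredoxin-domain isomerase (-0.25, edgeR FDR 0.0361). Pdia3 was at 145, 130, 133 and 125 CPM in tumor-bearing mice and at 202, 212, 176 and 160 CPM in PBS-injected mice. Hspa13 was at 16.1, 16.9, 16.5 and 16.9 CPM in tumor-bearing mice and at 22.1, 21.8, 20.95 and 21.8 CPM in PBS-injected mice. In both genes the groups did not overlap, and for Pdia3 the nearest mice were LLC1 1-2 (145 CPM) and PBS 2-5 (160 CPM). Hspa5, whose element is printed above, was at 815, 647, 771 and 626 CPM in tumor-bearing mice and at 955, 1002, 795 and 763 CPM in PBS-injected mice, with overlap between the groups (log2 fold change -0.30, SE 0.11, edgeR FDR 0.112). Pdia3 and Hspa13 were past the threshold with any mouse left out, whereas the number of chaperone genes called lower was 2 without LLC1 1-3, LLC1 2-2 or PBS 1-3 and 3 without LLC1 1-5, while it was 7 without PBS 2-5 and 9 with the replicate-code covariate. Hyou1, Pdia4 and Txndc5 were past it in 5, 4 and 1 of those 8 analyses. The call was lost without LLC1 1-3, LLC1 2-2 or PBS 1-3 for Hyou1 (edgeR FDR up to 0.0615), without these or LLC1 1-5 for Pdia4 (up to 0.0641), and without any mouse but PBS 1-1 for Txndc5 (up to 0.115). Txndc5 was also not past it with total-count scaling (edgeR FDR 0.0505) or with no low-count filter (0.0800). Some endothelial, fibroblast and macrophage markers were lower in the same mice, as given above, and their part in the chaperone levels was not tested.

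**Figure D3:**
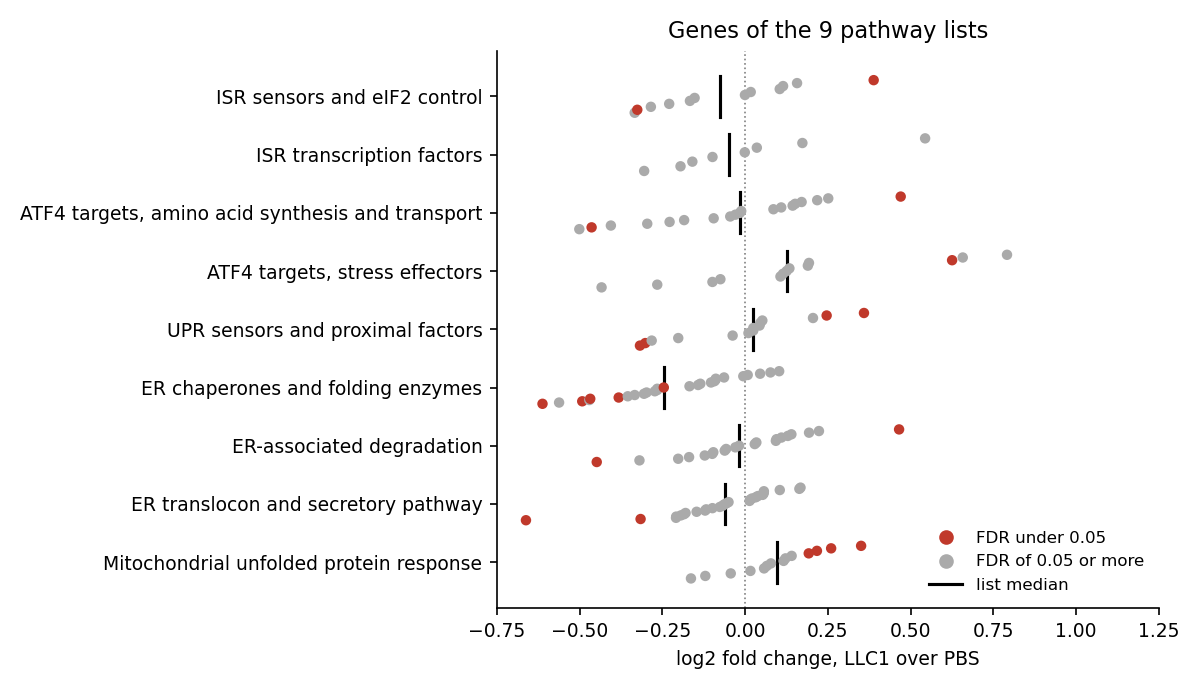
Log2 fold change of each tested gene of the 9 lists, tumor-bearing over PBS-injected mice (horizontal axis), by list (vertical axis). Points are genes, red where the edgeR FDR is under 0.05 and grey otherwise, and black bars are list medians; the ER chaperones have the lowest median (-0.25), and a few genes are in more than 1 list.

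In edgeR's test, ER-associated degradation had calls on both sides, and the ER translocon and secretory pathway had lower calls only. In ER-associated degradation, 21 of 22 genes were tested, Herpud1 was higher and Edem1, a lectin that hands misfolded glycoproteins to degradation, was lower, at 18.7, 17.8, 13.95 and 16.9 CPM in tumor-bearing mice and at 26.9, 22.8, 20.2 and 22.02 CPM in PBS-injected mice (log2 fold change -0.45, SE 0.11, edgeR FDR 0.0290). The 2 called genes of this list thus lay on opposite sides, and 6 genes had an unadjusted p under 0.05 (28.6% beside 25.5% over all genes). The number called higher was 3 with DESeq2 and 2 with the likelihood ratio test or without PBS 2-5, and the number called lower was 2 without PBS 1-1 or PBS 2-5. Edem1 lost its call without LLC1 1-3, LLC1 1-5, LLC1 2-2 or PBS 1-3, its highest edgeR FDR being 0.0800 without LLC1 1-5. Of 28 genes of the ER translocon and secretory pathway, 0 were higher and 2 lower in edgeR's test, with 7 at an unadjusted p under 0.05 in either direction, 25.0% beside 25.5% over all genes. The number called lower was 4 without PBS 2-5 and 3 with the replicate-code covariate. The 2 genes were Kdelr3, a receptor that returns proteins to the ER (4.39 ± 0.176 CPM in tumor-bearing and 6.95 ± 0.538 CPM in PBS-injected mice; log2 fold change -0.66, edgeR FDR 0.00649), and Ssr1, a subunit of the translocon-associated complex (48.7 ± 4.27 and 60.8 ± 4.55 CPM; log2 fold change -0.32, edgeR FDR 0.0314). Kdelr3 was past the threshold with any mouse left out and Ssr1 lost its call without PBS 1-3 or any LLC1 mouse (edgeR FDR up to 0.0868, without PBS 1-3).

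In the mitochondrial unfolded protein response, a program of mitochondrial chaperones and proteases in which ATF5 takes part, 4 of 14 genes were higher and 0 lower in edgeR's test, against 4.12% and 4.61% of all genes, and the same 4 were those with an unadjusted p under 0.05 (28.6% beside 25.5% over all genes). They were the protease subunit genes Clpp (59.3 ± 2.56 CPM in tumor-bearing and 46.4 ± 3.74 CPM in PBS-injected mice; log2 fold change 0.35, edgeR FDR 0.0126) and Clpx (0.26, edgeR FDR 0.0298), the protease Lonp1 (0.22, edgeR FDR 0.0435) and the chaperone Trap1 (0.19, edgeR FDR 0.0498). This count depended on the scaling and on single mice, since it was 0 with total-count scaling, 0 without PBS 1-3, 1 without any of the 4 LLC1 mice and 2 without PBS 2-1 or with no low-count filter. Cardiomyocytes are rich in mitochondria, and the summed cardiomyocyte markers were given above; their part in this count was not tested.

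Herpud1 was then set beside the chaperones of the same compartment in each mouse. The summed level of 26 ER chaperone and folding genes (the list without Sdf2l1) was 2659 to 3136 CPM in tumor-bearing mice (mean 2854 ± 233) and 2975 to 3695 CPM in PBS-injected mice (mean 3329 ± 346). These ranges overlapped, LLC1 1-2 being above PBS 2-1 and PBS 2-5. Per 1000 CPM of these genes, Herpud1 was at 108, 116, 115 and 123 CPM in tumor-bearing mice and at 61.8, 63.7, 67.2 and 96.5 CPM in the PBS mice 1-1, 1-3, 2-1 and 2-5. The means were 115 ± 6.20 and 72.3 ± 16.3 CPM per 1000 CPM (SD, n = 4), with no overlap between the groups. Herpud1 alone did not overlap between the groups either, so the lack of overlap of the ratio is not a separate result. The ratio was formed after both values were seen, and it is given as a description with no test.

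**Figure D4:**
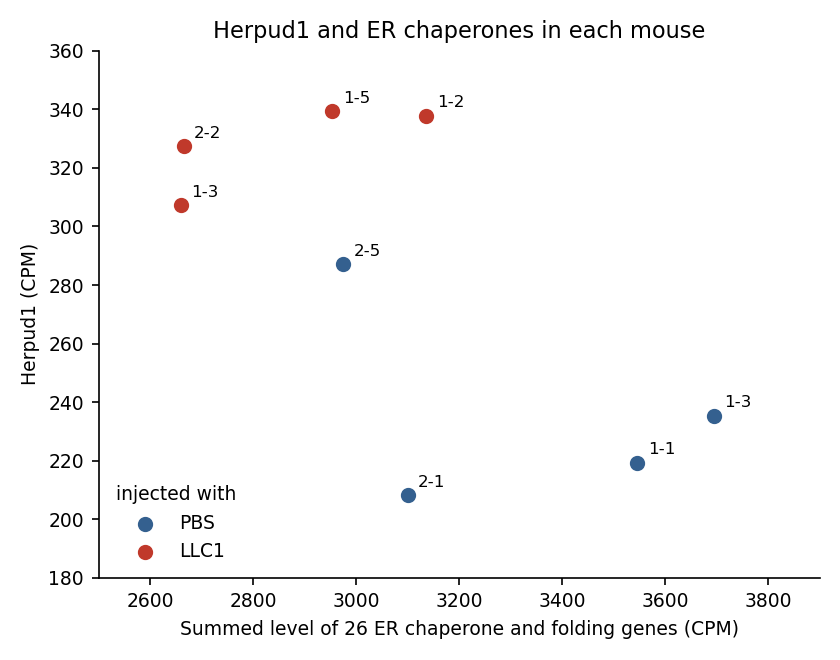
Herpud1 level (vertical axis, CPM) against the summed level of 26 ER chaperone and folding genes (horizontal axis, CPM) in each of the 8 mice, labeled by replicate code; neither axis starts at 0. The tumor-bearing mice lie at 307 to 339 CPM of Herpud1 and the PBS-injected mice at 208 to 287 CPM, while the chaperone sums of the groups overlap.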

How the data were processed

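Ventricular mRNA libraries (TruSeq RNA v2) of 4 tumor-bearing and 4 PBS-injected mice had been sequenced as 150-base paired ends and aligned to mm10. The authors deposited raw read counts per gene, without normalization. The submitters' processing notes name CASAVA, STAR and featureCounts, while their versions, the annotation and the strand setting are not given in the sources used here; without strand, overlapping genes can share reads. Of 43346 genes listed, 15963 had 0 counts in all 8 mice. Precision was set by totals of 12480706 to 19747596 counts and by 4 mice per group.

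Counts were filtered with filterByExpr, scaled by TMM and compared with edgeR 4.0.16 (R 4.3.3), using glmQLFit and glmQLFTest with Benjamini-Hochberg adjustment over all 16111 genes, and an FDR under 0.05 was a call. Each SE was worked back from the test, as the size of the log2 fold change divided by the square root of the F statistic. The 95% intervals were made from that SE and the t distribution. Exact two-sided permutation tests used the 70 arrangements of 4 and 4 mice on log2 CPM (prior count 2; smallest p 0.0286). Fold changes are tumor-bearing over PBS-injected mice. Alternatives were DESeq2 1.42.0, limma-voom (limma 3.58.1), the likelihood ratio test, robust empirical Bayes, upper-quartile and total-count scaling, no low-count filter (at least 1 count in any mouse), at least 10 counts in every mouse, the leading digit of the replicate codes as covariate, and each mouse left out. The 10 genes, the 9 lists and the 8 marker lists were chosen with earlier results of these data known. From each list, every gene past the threshold was named, or the gene of lowest p where none was; the 3 most alike genes were named for the 3 of the 10 genes with the lowest FDR. Groups were compared as unpaired. Motifs were searched in RefSeq promoters (GRCm38.p6, 250 bases before each start), exon overlaps in GENCODE M21, and similar transcripts with BLAST 2.17.0 (97% identity over 150 bases). The steps were tested on simulated counts. Python 3.11.15, pandas 2.3.3, scipy 1.17.1 and matplotlib 3.10.9 were used. Echocardiography and protein measurements were not analysed here.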

Additional observations from a re-analysis of the deposited data

Results flagged for a closer look

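Among the 10 genes and 2 groups (20 sets of 4 mice), 1 mouse lay far from the others of its group by Dixon's criterion. This was Ern1 in PBS 2-1, at 30.2 CPM, while the other PBS-injected mice were at 22.3, 23.2 and 23.5 CPM. Chance flags about 1 in 20 such sets. Without PBS 2-1 the log2 fold change of Ern1 was 0.16, and no call of any of the 10 genes changed when this mouse was left out.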

How the results depend on the processing

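Herpud1 was called higher, and the other 9 genes were not called, under each of the 9 alternatives on all mice and the 8 that left out a mouse. Atf4, Atf5, Ddit3, Atf6, Ern1 and Trib3 changed sign in at least 1 of the 17 without passing the threshold in any, while Xbp1, Asns and Sdf2l1 did not change sign. Counts over many genes moved more. With each mouse left out, genes called higher numbered 212 (without PBS 1-3) to 908 (without PBS 1-1) and genes called lower 330 (without PBS 1-3) to 1041 (without PBS 1-1). The first count was at most 365 without any mouse but PBS 1-1 or PBS 2-5, and the second at most 481 without PBS 1-3 or any LLC1 mouse. Over the 9 lists, 4 to 11 genes were higher and 4 to 17 lower, both at 4 without PBS 1-3 (lower also without LLC1 1-3) and both highest without PBS 2-5, and 2 to 7 ER chaperones were lower. With total-count scaling, 225 genes and 3 list genes were higher. With the leading digit of the replicate codes as covariate, 19 list genes and 9 ER chaperones were lower. The cause was not tested, other than that leaving out a mouse leaves fewer samples. DESeq2 called 912 genes higher and 819 lower. From 22 to 25 of the 27 ER chaperones were below 0 in each alternative. No paired analysis was possible because LLC1 and PBS mice have just 1 code in common (1-3), given to 2 different animals. Asns and Trib3 had the fewest counts, 27 to 92 per mouse, and fold intervals of the 9 genes not called reach from 0.580 to 1.55 with 4 mice per group. mRNA levels do not record phosphorylation of eIF2, Xbp1 splicing or cleavage of ATF6.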
